A study of Mus musculus with 9 samples.

Results

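Iris and anterior segment transcription factors were examined as 9 genes: *Pax6*, *Six3*, *Six6*, *Otx1*, *Otx2*, *Meis2*, *Foxc1*, *Lmx1b* and *Tfap2b*. They were chosen by name, each matched 1 row of the 18349 genes listed, and all 9 passed the filter on low counts. Levels were measured by RNA-Seq of mouse irises 28 days after corneal alkali injury (CAI) in 3 groups of 3 libraries, and 3 irises were pooled for each library. All mice were on the C57BL/6J background, carried floxed *VEGFR3* (the gene listed as *Flt4*) and were 10 weeks old at collection. The Sham VEGFR3 fl/fl group received PBS on the cornea. The injured VEGFR3 fl/fl group had filter paper wetted with sodium hydroxide (1 M, 0.5 μL) laid on the cornea at 6 weeks of age and left for 60 seconds. The injured VEGFR3 iLECko group received the same injury and also carried Prox1-CreERT2, a tamoxifen-inducible Cre driven by *Prox1* and therefore active in lymphatic endothelium and other *Prox1*-expressing cells. Per the study's methods, tamoxifen at 80 mg/kg was given from day 13 to day 17, to floxed littermates as well, and the ciliary body was trimmed away from the iris.

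The iris is built from 2 embryonic sources. The rim of the optic cup, a fold of neuroectoderm, gives rise to the pigmented iris epithelium and to the sphincter and dilator muscles, whereas periocular mesenchyme, largely from the neural crest, gives rise to the stroma and to the corneal endothelium and drainage tissue. *Pax6* is the paired-box regulator of eye development whose loss of 1 copy causes aniridia in humans. *Six3* and *Six6* belong to the sine oculis homeobox family of the eye field, *Otx1* and *Otx2* are orthodenticle homeobox factors needed for the pigmented layer of the optic cup, and *Meis2* is a TALE homeodomain cofactor known to act upstream of *Pax6* in the lens and optic vesicle. *Foxc1*, a forkhead factor, and *Lmx1b*, a LIM homeodomain factor, act in periocular mesenchyme, and mutation of either is linked to glaucoma in humans. *Tfap2b* encodes AP-2 beta, a factor of the neural crest and of the developing corneal endothelium. For description, the first 6 genes were treated as the optic cup factors and the last 3 as the mesenchymal factors.

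On GRCm38, which is the build named mm10 in the submitters' processing notes, GENCODE M21 places *Pax6* at chr2:105668900-105697364 on the plus strand, *Six3* at chr17:85613608-85629302 on the plus strand and *Six6* at chr12:72939892-72944899 on the plus strand. *Otx1* lies at chr11:21994764-22002897, *Otx2* at chr14:48657677-48673819 and *Meis2* at chr2:115863064-116065839, all on the minus strand. *Foxc1* lies at chr13:31806633-31812476 on the plus strand and has a single exon, *Lmx1b* at chr2:33560965-33640511 on the minus strand and *Tfap2b* at chr1:19208914-19238576 on the plus strand. Exons of *Six3* overlap those of the antisense genes *Gm28528* and *Six3os1*, exons of *Six6* those of *4930447C04Rik*, and exons of *Otx2* those of *Otx2os1* on the opposite strand and *Gm49154* on the same strand. Whether counting used strand is not given in the sources used here, so reads of these partners cannot be told apart from those of *Six3*, *Six6* and *Otx2*.

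RefSeq promoter windows on GRCm38.p6 were available for 8 of the 9 genes, 12 windows in all, but not for *Otx1*. The 250 bases before a start site are shown for 3 optic cup factors that moved together after injury and for *Tfap2b*, which was not called in any comparison. None of the 4 windows lay in an exon of its own gene. Letters are 5′ to 3′ on the coding strand, and capitals mark the homeodomain letters TAATTA and the CCAAT box on either strand (ATTGG where it was read on the other strand). The OTX-type letters TAATCC and the GC box GGGCGG were also searched and were in none of the 4.
Pax6, chr2:105668646-105668895, plus strand: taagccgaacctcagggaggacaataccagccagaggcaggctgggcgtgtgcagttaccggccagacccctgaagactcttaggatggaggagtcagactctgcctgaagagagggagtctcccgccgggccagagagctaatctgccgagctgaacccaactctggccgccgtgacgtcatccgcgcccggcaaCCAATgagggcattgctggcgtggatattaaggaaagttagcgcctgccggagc
Six3, chr17:85620584-85620833, plus strand: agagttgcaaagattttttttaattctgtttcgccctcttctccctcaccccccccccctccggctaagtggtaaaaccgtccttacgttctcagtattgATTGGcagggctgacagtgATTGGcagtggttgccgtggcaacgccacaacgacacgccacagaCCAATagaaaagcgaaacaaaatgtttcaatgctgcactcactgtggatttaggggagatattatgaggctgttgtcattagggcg
Otx2, chr14:48667645-48667894, minus strand: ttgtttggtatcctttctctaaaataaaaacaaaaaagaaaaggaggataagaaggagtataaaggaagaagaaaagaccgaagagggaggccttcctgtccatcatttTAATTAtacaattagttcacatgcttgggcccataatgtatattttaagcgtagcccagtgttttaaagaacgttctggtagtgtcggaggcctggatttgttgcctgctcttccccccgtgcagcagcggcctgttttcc
Tfap2b, chr1:19211804-19212053, plus strand: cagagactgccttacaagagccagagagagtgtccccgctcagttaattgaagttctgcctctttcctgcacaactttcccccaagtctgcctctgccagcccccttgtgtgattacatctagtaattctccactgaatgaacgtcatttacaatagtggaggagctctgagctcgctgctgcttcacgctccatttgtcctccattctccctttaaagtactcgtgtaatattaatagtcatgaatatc
The *Six3* window held 3 CCAAT boxes, the *Pax6* window 1 CCAAT box and the *Otx2* window 1 TAATTA, and the *Tfap2b* window held none of these letters. The *Pax6* window lay within the span of the antisense gene *Pax6os1* but outside its exons. The *Six3*, *Otx2* and *Tfap2b* windows lay in introns of longer transcripts of their own genes, and 44 bases of the *Six3* window also lay in an exon of *Gm28528*. Over all 32851 windows of this length, 33.8% held CCAAT, 4.84% held TAATTA, 6.25% held TAATCC and 32.7% held GGGCGG, searched on both strands, compared with 7, 2, 1 and 2 of the 12 windows of these genes. The CCAAT box was chosen after the sequences were seen. A match describes letters only.

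Total counts per library ranged from 16617187 to 18306359, and replicates differed by more than counting noise. *Flt4* itself was not lower in the libraries labelled VEGFR3 iLECko, with 370 to 478 counts compared with 277 to 400 in injured VEGFR3 fl/fl (1.26-fold higher, adjusted p = 0.20, edgeR quasi-likelihood), so the deletion is not visible in whole iris RNA and the label is used throughout as given. The libraries also differed in retinal RNA and in sex makeup. RNA of retinal photoreceptors, summed over 10 markers, spanned 104.4 to 956.3 CPM (counts scaled to library size) in Sham, 16.8 to 620.4 CPM in injured VEGFR3 fl/fl and 26.6 to 635.4 CPM for VEGFR3 iLECko, with no marker at 0 throughout. The mean log2 CPM of 4 Y-linked genes was 3.53 to 5.16 in the Sham libraries and in injured VEGFR3 fl/fl replicates 1 and 2. It was between -2.40 and -2.05 in injured VEGFR3 fl/fl replicate 3 and the 3 VEGFR3 iLECko libraries. Sex makeup thus differed between the injured groups, and the Sham and VEGFR3 iLECko libraries did not overlap in it. The study's ciliary body check genes, *Atp6v1c2* and *Cacna1e*, had 3 to 33 counts in every library.

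The first comparison asked what CAI did to these factors in irises with intact *VEGFR3*. All 6 optic cup factors fell and none of the 3 mesenchymal factors was called. A gene was called where its adjusted p was under 0.05 and it differed by over 1.5-fold. By this rule 17.5% of the 15010 genes tested were called lower and 22.1% higher (2630 and 3323 genes, compared with 3523 and 2783 when libraries were scaled by their totals alone), and every injured library was below every Sham library for 32.4%. The optic cup factors fell to between 21.0% and 34.7% of their Sham level. In RNA of a whole tissue, fewer cells of a type and less RNA per cell cannot be told apart.

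**Figure D1:**
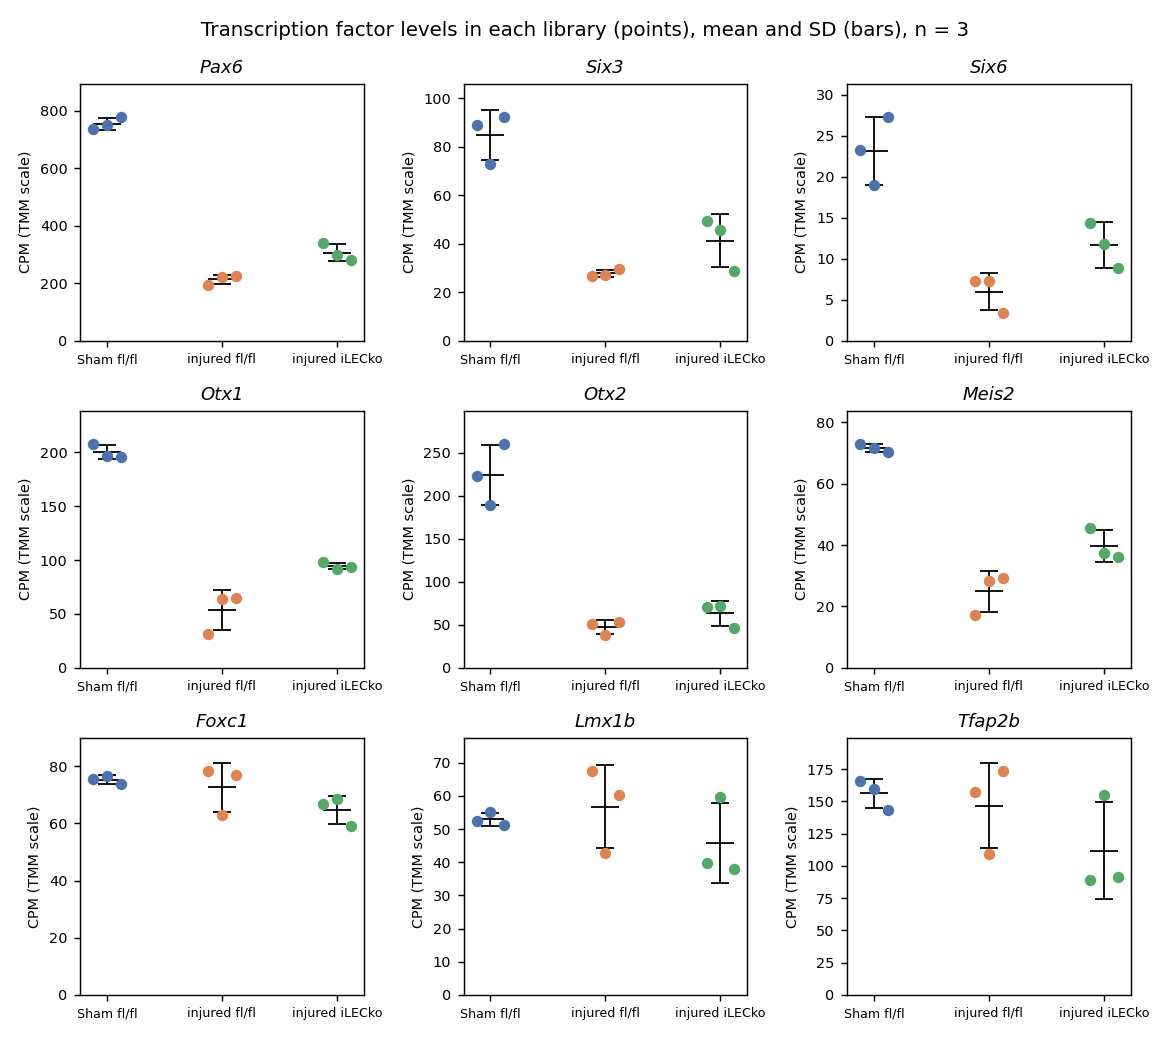
Level of each of the 9 factors in each library, in CPM on the TMM scale (y axis, from 0), by group (x axis); points are libraries and bars are the mean and SD of 3. The upper 2 rows, the optic cup factors, have every injured library below every Sham library, whereas in the lower row the injured VEGFR3 fl/fl and Sham libraries overlap.

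*Pax6* was counted 13309, 13273 and 13819 times in the Sham libraries, 3197, 3780 and 3907 times in injured VEGFR3 fl/fl and 5798, 5277 and 4898 times for VEGFR3 iLECko. Each group stood apart from the others, with Sham highest and injured VEGFR3 fl/fl lowest. Scaled by TMM, the trimmed mean method of edgeR, its level was 755 ± 21.0 CPM in Sham, 213.2 ± 16.7 in injured VEGFR3 fl/fl and 306.5 ± 29.2 for VEGFR3 iLECko (mean ± SD, n = 3). The log2 fold change after injury was -1.82 (SE 0.097, adjusted p = 7.08e-07, edgeR).

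*Six3*, which represses Wnt signaling in the anterior neural plate, was counted 1607, 1291 and 1637 times in Sham, 440, 463 and 514 times in injured VEGFR3 fl/fl and 842, 808 and 498 times for VEGFR3 iLECko. Replicate 3 of VEGFR3 iLECko fell within the injured VEGFR3 fl/fl range, and both injured groups lay below Sham. The change after injury was -1.61 log2 (SE 0.19, adjusted p = 7.24e-05, edgeR), from 84.7 ± 10.3 to 27.8 ± 1.52 CPM.

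*Six6*, a close relative of *Six3* that sustains growth of retinal progenitors, was the lowest of the 9, with 420, 335 and 484 counts in Sham, 120, 124 and 59 in injured VEGFR3 fl/fl and 246, 207 and 154 for VEGFR3 iLECko. The 3 groups did not overlap, although replicate 3 of injured VEGFR3 fl/fl was far below the other two. Its change after injury was -1.95 log2 (SE 0.30, adjusted p = 0.0004, edgeR), from 23.1 ± 4.17 to 5.98 ± 2.24 CPM. The count ratio of *Six3* to *Six6* lay between 3.23 and 3.90 in 8 libraries and was 8.71 in that replicate 3.

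*Otx1*, which is expressed in the rim of the optic cup, was counted 3748, 3489 and 3476 times in Sham, 522, 1095 and 1120 times in injured VEGFR3 fl/fl and 1676, 1625 and 1624 times for VEGFR3 iLECko. The groups did not overlap, and replicate 1 of injured VEGFR3 fl/fl was the lowest library. The change after injury was -1.91 log2 (SE 0.23, adjusted p = 8.68e-05, edgeR).

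*Otx2*, which activates pigment genes in the retinal pigment epithelium and is also used by photoreceptors and bipolar cells, had the largest decrease of the 9. Its counts were 4011, 3351 and 4609 in Sham, 833, 640 and 921 in injured VEGFR3 fl/fl and 1213, 1271 and 810 for VEGFR3 iLECko. Both injured groups were far below Sham and overlapped each other. The change was -2.25 log2 (SE 0.20, adjusted p = 1.62e-05, edgeR), to 21.0% of the Sham level. The mean photoreceptor marker level of the same libraries was 4.68, 1.72 and 3.16 log2 CPM in Sham, 0.55, 4.19 and -0.46 in injured VEGFR3 fl/fl and 4.18, -0.02 and 3.93 for VEGFR3 iLECko, and its part in the *Otx2* values was not tested.

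*Meis2* was counted 1315, 1269 and 1248 times in Sham, 283, 482 and 508 times in injured VEGFR3 fl/fl and 779, 662 and 625 times for VEGFR3 iLECko. The groups were again separate, and replicate 1 was the lowest of injured VEGFR3 fl/fl, as it was for *Pax6*, *Otx1* and, by a small margin, *Six3*. The change after injury was -1.53 log2 (SE 0.18, adjusted p = 8.67e-05, edgeR). That library also had the most RNA of *Aldh3a1*, a corneal crystallin, with 1921 counts compared with 33 and 178 in the other libraries of the group. Other markers of corneal and surface epithelium had few counts and went both ways. *Krt12*, *Krt5* and *Krt15* were lowest in replicate 1 (3, 3 and 4 counts, with group maxima of 10, 12 and 22). *Trp63* was highest there (21 counts). Summed pigment markers were also lowest in replicate 1, at 3381 CPM compared with 5452 and 5828. What these levels contribute to the low values of that library was not tested. Without it the changes of *Pax6*, *Otx1* and *Meis2* were -1.76, -1.64 and -1.32 log2 and all 3 remained called.

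The mesenchymal factors stayed near their Sham level. *Foxc1* was counted 1363, 1357 and 1308 times in Sham and 1288, 1073 and 1339 times in injured VEGFR3 fl/fl, and these ranges overlapped. Its difference was -0.05 log2, with an interval of 2 SE each way from -0.24 to 0.14 (adjusted p = 0.658, edgeR). *Lmx1b* was counted 946, 975 and 909 times in Sham and 1110, 731 and 1049 times after injury, with injured libraries on either side of the Sham range. Its difference was 0.10 log2 (-0.29 to 0.50, adjusted p = 0.675) and was -0.076 when libraries were scaled by their totals alone, which moved the median of all genes to -0.16 log2. *Tfap2b* was counted 2993, 2826 and 2551 times in Sham and 2593, 1871 and 3017 times after injury, again overlapping. Its difference was -0.09 log2 (-0.55 to 0.37, adjusted p = 0.748), an interval that leaves room for changes close to 1.5-fold.

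Within a library, the count ratio of *Pax6* to *Foxc1* does not depend on scaling. It was 9.76, 9.78 and 10.6 in Sham, 2.48, 3.52 and 2.92 in injured VEGFR3 fl/fl and 5.07, 4.37 and 4.77 for VEGFR3 iLECko. The 3 groups did not overlap in this ratio. The ratio of *Otx1* to *Otx2* was 0.934, 1.04 and 0.754 in Sham, 0.627, 1.71 and 1.22 in injured VEGFR3 fl/fl and 1.38, 1.28 and 2 for VEGFR3 iLECko. Here injured VEGFR3 fl/fl spread across both other groups, so no shift between the paired *Otx* genes was detectable in it. The *Otx1* to *Otx2* ratio of every VEGFR3 iLECko library was above that of every Sham library.

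Per length, as approximate TPM from the longest annotated transcript, the order of levels in Sham was *Pax6* (491.9 ± 21.8), *Otx2* (249.5 ± 44.8), *Otx1* (109.5 ± 7.43), *Tfap2b* (76.9 ± 6.90), *Six3* (66.6 ± 10.3), *Meis2* (37.6 ± 1.85), *Foxc1* (37.1 ± 1.30), *Lmx1b* (31.8 ± 0.856) and *Six6* (16.7 ± 3.39). *Meis2* and *Foxc1* overlapped in their library ranges, as did *Tfap2b* and *Six3*. In injured VEGFR3 fl/fl, *Pax6* was still the highest at 113.4 ± 17.2 and *Six6* the lowest at 3.46 ± 1.22, but *Tfap2b* (58.5 ± 13.6) was next, with a library range (45.6 to 72.7) overlapping that of *Otx2* (35.3 to 50.2), and *Foxc1* (29.1 ± 3.11) and *Lmx1b* (27.6 ± 5.04) stood above *Otx1* (24.2 ± 9.82), with overlapping ranges among these last 3. The middle of the order depends on the transcript length assumed. With the median transcript length, *Pax6* stayed highest and *Six6* lowest in all 3 groups.

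**Figure D2:**
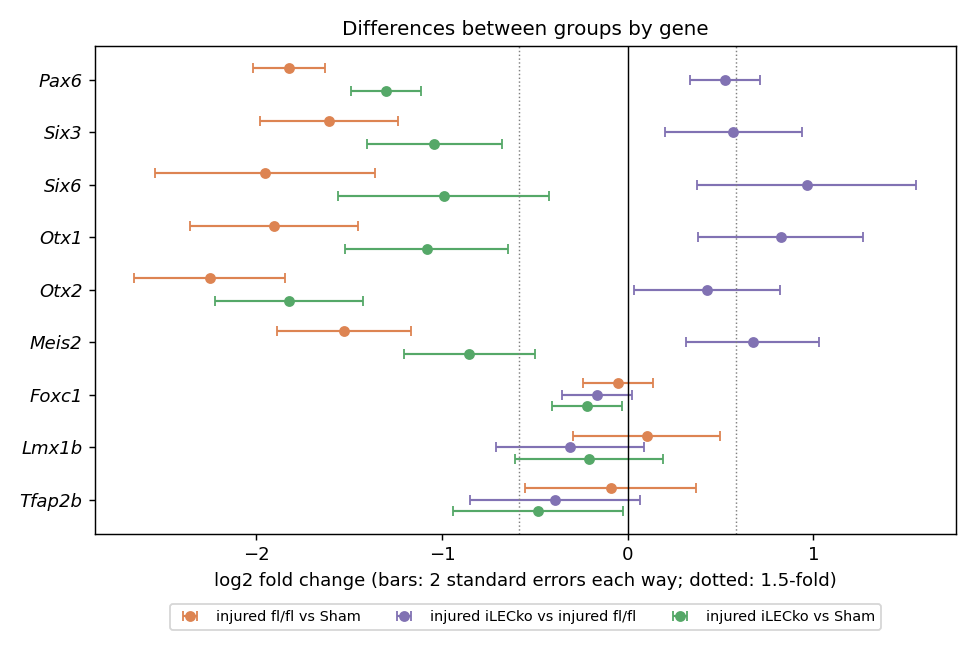
log2 fold change of each factor (x axis) in the 3 comparisons, with bars of 2 standard errors each way and dotted lines at 1.5-fold. The points of the 6 optic cup factors are left of the lower dotted line in both comparisons with Sham, and the 3 mesenchymal factors lie around 0 or slightly left of it. For VEGFR3 iLECko compared with Sham, the bars of *Six6* (to -0.42) and *Meis2* (to -0.50) cross that dotted line.

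Other regulators of the same tissues were counted from lists written with earlier results of these data known. Of 9 tested eye field and optic cup factors outside the 9 genes, 7 fell after injury and 0 rose, with a median of -1.54 log2 compared with 0.01 over all genes tested. They included *Lhx2* (-2.01 log2), a LIM homeodomain factor needed for optic cup formation, *Mitf* (-1.54), the regulator of pigment cell genes, *Tbx5* (-2.80), a marker of the dorsal optic cup, and *Zic2* (-1.81), a zinc finger factor of the ventral retina. *Hes1* (-0.23) and *Sox2* (-0.55) were not called, and *Vax1* and *Pax2* had 3 or fewer counts in every library. Of 8 tested mesenchymal factors outside the 9 genes, 5 rose and 3 fell, with a median of 0.94 log2, which differs from the near 0 changes of *Foxc1*, *Lmx1b* and *Tfap2b*. The forkhead gene *Foxc2*, a paralog of *Foxc1*, rose 4.59-fold and *Twist1*, a mesenchymal bHLH factor, rose 4.76-fold. *Maf*, which macrophages also express, rose 1.89-fold and *Prrx1*, a mesenchymal homeobox gene, 2.29-fold. *Pax3* (-3.41) and *Tfap2a* (-2.02), which melanocytes also express, fell, as did *Foxd3* (-0.93).

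Relatives and partners of the 9 genes moved in both directions. Of 6 tested family relatives, 2 fell and 3 rose, with a median of 0.15 log2. *Meis1* (-1.51 log2) and *Six5* (-1.06) fell, *Six4* (1.38) and *Meis3* (0.72) were among those that rose, and *Crx* was not called. *Meis1* and *Meis2* thus fell by similar amounts, -1.51 and -1.53 log2, whereas the sine oculis genes divided, with *Six3*, *Six6* and *Six5* lower and *Six4* higher. Of 17 protein partners, 4 fell and 1 rose, with a median of -0.23. *Dach1* (-1.87) and *Eya1* (-2.47), cofactors of sine oculis proteins, and *Tle4* (-1.61), a Groucho-type corepressor, fell, and *Tle3* (0.90) rose.

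**Figure D3:**
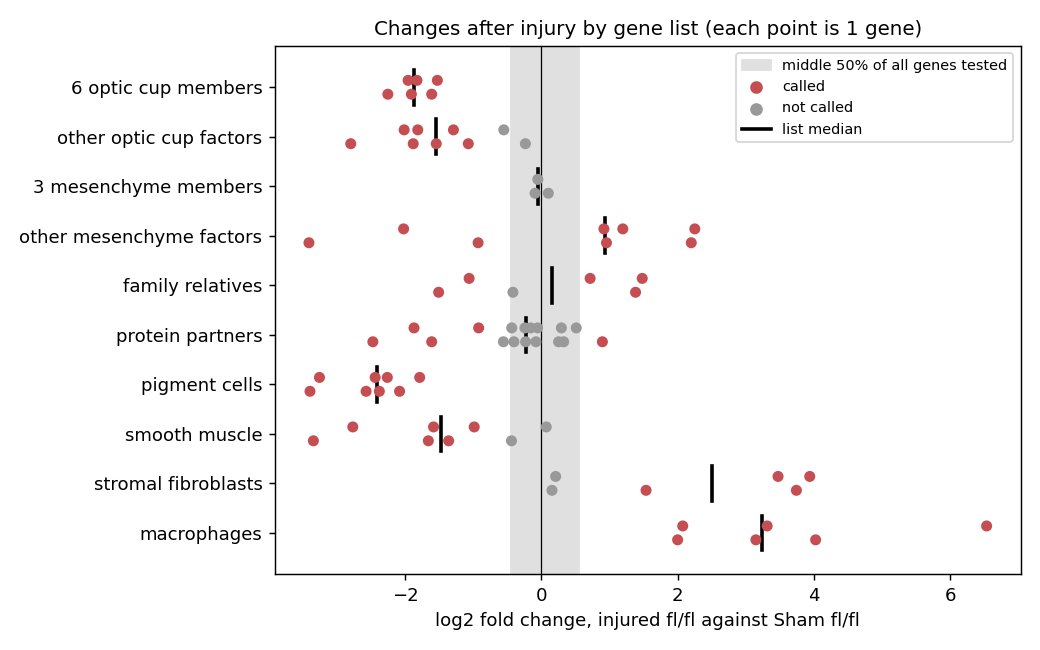
log2 fold change in injured VEGFR3 fl/fl compared with Sham (x axis) for the genes of each list (rows), red where called and grey where not, with a black line at the list median and a grey band over the middle 50% of all genes tested. The 6 optic cup members and the pigment markers lie left of the band, as do most other optic cup factors and smooth muscle markers, the 3 mesenchymal members lie in it, and fibroblast and macrophage rows lie mostly right of it.

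Levels of cell type markers also differed after injury. All 8 pigment cell markers fell, with a median of -2.41 log2 and summed levels of 27730 to 29710 CPM in Sham and 3381 to 5828 CPM in injured VEGFR3 fl/fl. Of 8 iris smooth muscle markers 6 fell (median -1.47, 8034 to 10370 CPM and 1682 to 3515 CPM). Of 5 retinal pigment epithelium markers 4 fell and 1 rose, of 5 tested inner retina markers 2 fell, and of 10 photoreceptor markers 1 fell. The inner retina markers that fell were *Slc6a9* and *Rbpms*, at 244 and 194 CPM in Sham. *Grm6*, *Gad1* and *Slc32a1*, at 0.76 to 1.98 CPM there, were not called, and the list median was 0.28 log2. Markers of immune and endothelial cells rose, with 6 of 6 for macrophages (315 to 317 CPM in Sham, 10390 to 18970 after injury), 5 of 5 tested for T cells and 3 of 5 for endothelium. Of 6 stromal fibroblast markers 4 rose and 0 fell (median 2.50, 3799 to 4366 CPM and 15500 to 22500 CPM). Schwann cells (3 fell and 1 rose of 5), corneal epithelium (3 fell of 5), lens (1 fell and 2 rose of 4) and ciliary body (0 of 2) complete the lists. The part of these shifts in the decrease of the optic cup factors was not tested.

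Set against the pigment markers of the same library, all 9 factors were higher after injury than in Sham, because the pigment list fell further. The difference of the relative levels, injured VEGFR3 fl/fl minus Sham, was 0.73 log2 for *Pax6*, 0.30 for *Otx2* and 0.99 for *Meis2*, and 2.50, 2.63 and 2.44 for *Foxc1*, *Lmx1b* and *Tfap2b*. Set against the smooth muscle markers, 4 of 9 were higher, with *Pax6* at -0.25, *Otx2* at -0.67 and *Meis2* at 0.02. The value for *Meis2* was far inside the spread between libraries (SD 0.20 in Sham and 0.34 after injury), so its sign carries no information. *Foxc1*, *Lmx1b* and *Tfap2b* were higher by 1.52, 1.66 and 1.47 log2. Against smooth muscle, the values of *Pax6*, *Six3* (-0.02), *Six6* (-0.42) and *Otx2* were also inside the SD of injured VEGFR3 fl/fl libraries (0.47, 0.56, 0.81 and 0.80). That of *Otx1* (-0.40, SD 0.34) was just outside it. Against pigment markers, *Otx2* (SD 0.56) and *Six6* (0.56, SD 0.93) were inside theirs. The direction of most optic cup factors against smooth muscle was therefore not resolved.

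The second comparison asked whether the irises labelled VEGFR3 iLECko differed from injured VEGFR3 fl/fl irises. None of the 9 factors was called. Over all genes 0.466% were called lower and 0.573% higher, 12.4% had every VEGFR3 iLECko library above every injured VEGFR3 fl/fl library, and 0.813% were higher by the adjusted p alone. At an unadjusted p under 0.05, 5 of the 9 factors differed, all higher, and 24.5% of all genes differed in either direction. DESeq2 called 3 of the 9, namely *Six6*, *Otx1* and *Meis2*, among 350 genes that it called higher. The estimates of all 6 optic cup factors were above 0, between 0.43 and 0.96 log2, and those of the 3 mesenchymal factors below 0. Over all genes tested, 48.5% of the estimates were above 0, with a median of -0.0099 log2.

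*Pax6* was 306.5 CPM in VEGFR3 iLECko compared with 213.2 CPM, a difference of 0.52 log2 (SE 0.094) that passed the adjusted p (0.0399, edgeR) but not 1.5-fold. *Six6* had the largest estimate, 0.96 log2 (interval 0.37 to 1.55, adjusted p = 0.106), followed by *Otx1* at 0.82 (0.38 to 1.27, adjusted p = 0.081) and *Meis2* at 0.67 (0.31 to 1.03, adjusted p = 0.0803), all by edgeR. For these 4 every VEGFR3 iLECko library was above every injured VEGFR3 fl/fl library, with an exact two-sided permutation p of 0.1, the smallest that 3 against 3 libraries allow. *Six3* (0.57, adjusted p = 0.117) and *Otx2* (0.43, adjusted p = 0.218) overlapped, each through replicate 3 of VEGFR3 iLECko.

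The adjusted p of *Pax6* was close to its threshold and ranged from 0.0443 to 0.143 when any 1 of the 9 libraries was left out. It was 0.117 in a fit of the 6 injured libraries alone. With the Y-linked level as a covariate, added after seeing the data, the *Pax6* difference was 0.47 log2 with an adjusted p of 0.373. Since 1 injured VEGFR3 fl/fl library alone shared the low Y-linked level of all VEGFR3 iLECko libraries, the parts of sex makeup and genotype in these differences cannot be told apart.

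*Foxc1*, *Lmx1b* and *Tfap2b* had differences of -0.17, -0.31 and -0.39 log2 in the second comparison (adjusted p = 0.302, 0.351 and 0.314, edgeR), and each overlapped between the groups. Their intervals reached from -0.36 to 0.02, from -0.71 to 0.09 and from -0.85 to 0.07. The counts for VEGFR3 iLECko were 1143, 1207 and 1026 for *Foxc1*, 682, 1055 and 657 for *Lmx1b* and 1521, 2736 and 1594 for *Tfap2b*, so that replicate 2 was the highest for all 3 genes.

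The mesenchymal factors varied together between injured libraries, and they were higher where photoreceptor RNA was lower. The injured libraries with little photoreceptor RNA were VEGFR3 fl/fl replicates 1 and 3 and VEGFR3 iLECko replicate 2, with mean marker levels of 0.55, -0.46 and -0.02 log2 CPM compared with 4.19, 4.18 and 3.93 in the other 3. *Lmx1b* had 1110, 1049 and 1055 counts in the former and 731, 682 and 657 in the latter. *Tfap2b* had 2593, 3017 and 2736 counts compared with 1871, 1521 and 1594. For *Foxc1* the counts were 1288, 1339 and 1207 compared with 1073, 1143 and 1026. In Sham no such division was seen, since photoreceptor levels of 4.68, 1.72 and 3.16 went with *Lmx1b* counts of 946, 975 and 909. The libraries were set side by side after their values were seen, and what photoreceptor RNA contributes to the levels of these genes was not tested.

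**Figure D4:**
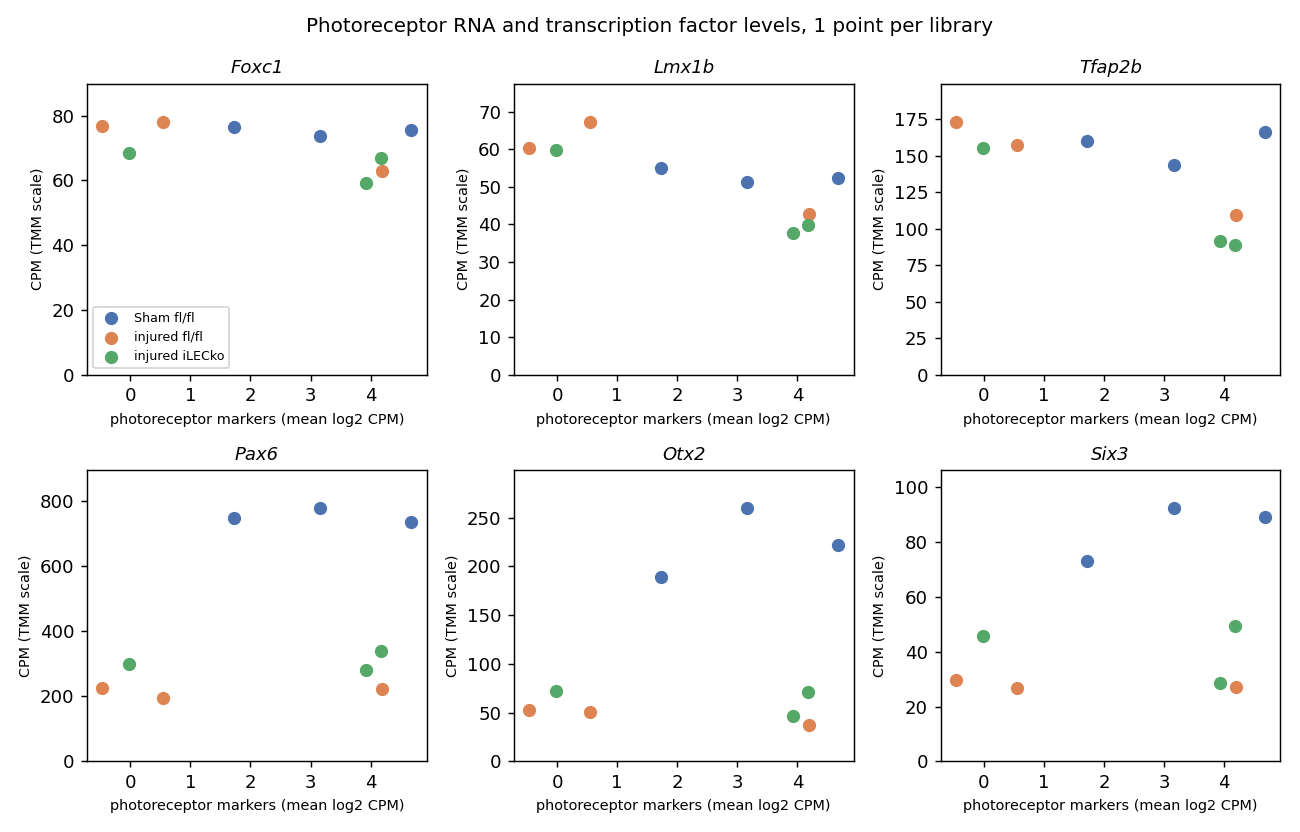
CPM on the TMM scale (y axis) against the mean log2 CPM of 10 photoreceptor markers (x axis), 1 point per library, for the 3 mesenchymal factors (upper row) and 3 optic cup factors (lower row). Among injured libraries the points at the right of the upper row lie lowest, and in the lower row the injured libraries stay below Sham at any photoreceptor level.

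Compared with Sham, the VEGFR3 iLECko irises had the same 6 optic cup factors lower, and none of the 9 was called higher, where 15.0% of all genes were called lower, 19.7% higher, and 33.2% had every VEGFR3 iLECko library below every Sham library. This comparison shares the Sham libraries with the first and the VEGFR3 iLECko libraries with the second, so values are only set side by side. Y-linked levels were high in every Sham library and low in every VEGFR3 iLECko library. The parts of sex makeup, injury and genotype in these differences therefore cannot be told apart. *Pax6* was at 40.6% of its Sham level (-1.30 log2, adjusted p = 6.16e-06) compared with 28.2% in injured VEGFR3 fl/fl. *Otx2* was at 28.2% (-1.82, adjusted p = 6.86e-05) compared with 21.0%, the lowest share in each injured group. *Six3* was at 48.7%, *Six6* at 50.4%, *Otx1* at 47.2% and *Meis2* at 55.4%, compared with 32.8%, 25.8%, 26.7% and 34.7%, with adjusted p from 0.00113 to 0.0153 by edgeR.

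*Six6* was the least secure of these, since its adjusted p was 0.0604 without Sham replicate 3 and 0.06 without VEGFR3 iLECko replicate 3. With the Y-linked covariate its difference was 0.026 log2 (adjusted p = 0.96). Within groups the Y-linked level differed mainly through injured VEGFR3 fl/fl replicate 3 (-2.37 log2 CPM, compared with 4.97 and 4.93). That library also had the lowest *Six6* count, 59. The covariate fit thus rests largely on that library and cannot separate sex makeup from group. *Foxc1* was lower in every VEGFR3 iLECko library than in any Sham library, but the difference was small (-0.22 log2, interval -0.41 to -0.03, adjusted p = 0.0792). *Tfap2b* (-0.48, -0.94 to -0.02, adjusted p = 0.104) and *Lmx1b* (-0.21, -0.60 to 0.19, adjusted p = 0.405) overlapped with Sham. Without VEGFR3 iLECko replicate 2, the library with little photoreceptor RNA, the *Tfap2b* difference was -0.79 log2 with an adjusted p of 0.00775 and was called. With the photoreceptor level as a covariate, chosen after seeing the data, it was -0.61 log2 (adjusted p = 0.00489, called), and *Lmx1b* (-0.30, adjusted p = 0.0483) and *Foxc1* (-0.24, adjusted p = 0.0327) passed the adjusted p but not 1.5-fold. *Foxc1* passed the adjusted p in 5 of 18 alternatives, with values from 0.0121 to 0.255 over all of them, and 1.5-fold in none.

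The lists behaved as follows in the second comparison. Of the 9 other optic cup factors, 1 rose, *Lhx2* (0.65 log2, adjusted p = 0.0392), counted 1428, 1209 and 1111 times in VEGFR3 iLECko and 651, 827 and 856 times in injured VEGFR3 fl/fl. Of the 17 protein partners, *Dach1* (0.70, adjusted p = 0.0235) and *Eya1* (0.90, adjusted p = 0.0407) rose. No other mesenchymal factor and no family relative was called. Of the marker lists, 2 of 6 macrophage markers fell, 1 of 5 inner retina markers rose and no pigment, smooth muscle, fibroblast or photoreceptor marker was called. The inner retina marker was *Slc6a9* (0.69 log2, adjusted p = 0.0417, edgeR), whereas the median of that list was -0.51 log2. Summed macrophage markers were 7011 to 8868 CPM in VEGFR3 iLECko and 10390 to 18970 CPM in injured VEGFR3 fl/fl, and pigment markers were 5068 to 7131 CPM and 3381 to 5828 CPM.

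Genes with the most similar pattern were sought by the root mean square difference of centred log2 CPM over the 9 libraries, among 14213 genes with a mean of at least 1 CPM. The nearest to *Pax6* was *Ahcyl2* (0.076 log2), to *Otx1* the tight junction gene *Cldn19* (0.057), to *Meis2* *Cntnap1* (0.087) and to *Six3* *Rtn4rl1* (0.11). *Foxc1*, *Lmx1b* and *Tfap2b* were nearest to *Tubgcp5* (0.053), *Lrrc39* (0.070) and *Gm5141* (0.15), and the last pair had mean levels of only 3.32 and 3.38 CPM.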

How the data were processed

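RNA-Seq was performed on 9 libraries of mouse iris, 3 per group, each from 3 pooled irises. Per the study's methods and the submitters' processing notes, single-end reads of 50 bases were aligned with HISAT2 2.0.4 and Bowtie2 2.2.5 to mm10. The authors deposited estimated counts per gene without normalization. The counting program, its annotation and its use of strand are not given in the sources used here. A combined table of the series was not used. Groups were taken from titles and descriptions, because the genotype tags of injured VEGFR3 iLECko replicates 2 and 3 name another VEGFR number.

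Estimated counts were rounded, which affected only *Pax6* among the 9 genes. In R 4.3.3, edgeR 4.0.16 was used with filterByExpr (15010 of 18349 genes kept), TMM normalization (factors 0.90 to 1.09), 1 fit of all 9 libraries and the quasi-likelihood test, and p-values were adjusted by Benjamini-Hochberg over the whole table. Standard errors were computed from the F statistic. The exact test was a two-sided permutation of libraries. log2 CPM used a prior count of 2. The procedure was tested on simulated data. Approximate TPM used GENCODE M21 transcript lengths, available for 96.1% of the genes, and promoter windows came from RefSeq.

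The members and lists were chosen with earlier results of these data known. All members were named. Of each list up to 4 genes were named, those with the lowest adjusted p in the comparison, with further genes named after their values were seen; the nearest gene by pattern was named for 7 of the members, and some results are not reported here. Alternatives covered normalization, filter, test (DESeq2 1.42.0), libraries in the fit, thresholds, reference list, prior count, the replicate number as a block, and each library omitted in turn. Lengths by the median transcript, and covariates for photoreceptor and Y-linked levels, were chosen later, with the data in view. Nothing in the labels says that replicate numbers pair libraries, and the correlation of deviations between same-numbered libraries was -0.387 to 0.131, so no block was used in the reported fit. Each library is a pool of separate irises; p-values measure the spread between such pools.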

Additional observations from a re-analysis of the deposited data

How the results depend on the processing

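In injured VEGFR3 fl/fl compared with Sham, 6 members were called lower and 0 higher under each alternative. In VEGFR3 iLECko compared with Sham, 5 to 7 were called lower when 1 library was left out (7 without VEGFR3 iLECko replicate 2), 7 with the photoreceptor covariate and 5 with the Y-linked covariate. In VEGFR3 iLECko compared with injured VEGFR3 fl/fl, 0 members were called by edgeR, 3 by DESeq2, 1 (*Pax6*) with no fold threshold, and 0 to 1 when 1 library was left out (1, *Six3*, without VEGFR3 iLECko replicate 3). The number of members higher relative to pigment markers after injury went from 9 to 4 with the smooth muscle list. Of 486 pairs of a member's result and an alternative, 453 kept direction and side of the threshold, 13 lost the adjusted p, 14 gained it and 6 changed sign. *Lmx1b* after injury changed to -0.076 log2 with library size only (median of all genes -0.16) and -0.13 with the photoreceptor covariate, and ranged from -0.039 to 0.27 when 1 library was left out, *Foxc1* from -0.11 to 0.045 and *Tfap2b* from -0.23 to 0.083. The negative value of *Lmx1b* came without injured VEGFR3 fl/fl replicate 1 and the positive values of *Foxc1* and *Tfap2b* without replicate 2. *Six6* in VEGFR3 iLECko compared with Sham was 0.026 with the Y-linked covariate. The cause of these changes was not tested.

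Over all genes, 70 were called lower and 86 higher in VEGFR3 iLECko compared with injured VEGFR3 fl/fl. These counts were 41 and 71 with library size only, 283 and 350 with DESeq2, 0 and 0 with the 6 libraries compared, 22 and 11 with the photoreceptor covariate, 2 and 0 with the Y-linked covariate, and 0 to 149 lower and 0 to 174 higher when 1 library was left out. With no fold threshold, 112 were lower and 122 higher here, and 4269 were lower in injured VEGFR3 fl/fl and 3953 in VEGFR3 iLECko compared with Sham.

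With the replicate block, 13 genes were lower and 11 higher in that comparison, *Pax6* was 0.52 log2 higher with an adjusted p of 0.0899 (edgeR), and no other member's call changed. The numbers share no stated source, so this is not read as a weaker effect. With 3 libraries per group the intervals of *Lmx1b* and *Tfap2b* are wide. *Six6*, with 59 counts in its lowest library, was the least deeply covered member.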
